A study of Mus musculus with 12 samples.

Results

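Cox10 and 9 other assembly factors of cytochrome oxidase were followed in RNA-seq libraries of midbrain astrocytes from mice with and without Cd38, an enzyme that consumes NAD. The 10 genes (Cox10, Cox11, Cox14, Cox15, Cox16, Cox17, Cox19, Sco1, Sco2 and Surf1) were chosen by name from the 20614 genes of the expression table, and all 10 were found there. The question was whether Cox10 was lower in Cd38-deficient astrocytes alone or together with the other factors that build the same enzyme.

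Cytochrome oxidase, complex IV of the respiratory chain, passes electrons from cytochrome c to oxygen in the inner mitochondrial membrane. Its catalytic subunits carry copper and a modified heme, heme A, and are built with the help of dedicated assembly factors that are not part of the finished enzyme. Cox10 attaches a farnesyl tail to heme and Cox15 oxidizes the product to heme A. Surf1 helps to place heme A in the subunit Cox1, the copper chaperones Cox17, Cox11, Cox19, Sco1 and Sco2 bring copper to the catalytic subunits or assist those that do, and Cox14 and Cox16 act early, around newly made Cox1 and Cox2.

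The 12 libraries came from male mice of 12 to 14 months (mean 13.5 months), 3 of the wild type Cd38+/+, 3 of the heterozygous Cd38+/- and 6 of the homozygous mutant Cd38-/-. The mutant allele is a disruption carried by every cell of the animal and bred on C57BL/6J, so that cells other than astrocytes lacked Cd38 too, and a chromosome segment from the 129-derived stem cells may have been carried along with it. No mouse received a treatment. Striatum, thalamus and substantia nigra were dissected, endothelial cells, oligodendrocytes and microglia were removed with beads, and astrocytes were captured with the surface antigen ACSA-2. Levels are given as TPM, a gene's share of all transcripts of a library after division by transcript length, scaled so that every library adds up to 1000000. Levels may therefore be compared between genes, but how many reads stood behind a level cannot be read from it. The labels do not say whether libraries of a genotype came from separate mice, so p-values measure the spread between these libraries.

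Cd38 itself followed the labels. Its level was 149, 120 and 105 TPM in the Cd38+/+ libraries, 90.8, 90.7 and 90.4 TPM in the Cd38+/- libraries, and between 8.54 and 21.9 TPM (median 15.7) in the Cd38-/- libraries. The summed level of 10 astrocyte markers lay between 10430 and 14900 TPM in Cd38+/+ and between 12000 and 15030 TPM in Cd38-/- libraries, and all Cd38+/- libraries lay above these, at 15600 to 17510 TPM. Every one of these markers was detected in each genotype. Signs of other cells were uneven. The 2 hemoglobin genes taken as erythroid markers summed to 4262 to 18430 TPM in Cd38+/+, 1709 to 3506 TPM in Cd38+/- and 2092 to 8321 TPM in Cd38-/- libraries. The 6 oligodendrocyte markers ranged from 1295 to 17800 TPM over all libraries, with overlap between the genotypes and Mog at 0 in all Cd38+/+ libraries. The 6 microglial markers summed to 6.23 to 17.9 TPM in Cd38+/+ libraries, below the 18.5 to 40.8 TPM of all others, with Tmem119 and Cx3cr1 at 0 in all Cd38+/+ libraries. The summed levels of the neuronal (9 genes, 24.7 to 110.6 TPM, Th and Slc6a3 at 0 in all Cd38+/+ libraries) and oligodendrocyte precursor markers (2 genes, 21.8 to 96.8 TPM) overlapped between the genotypes. The 3 mural markers, like the microglial ones, were lower in every Cd38+/+ library (88.3 to 108.8 TPM) than in any Cd38+/- (118.1 to 190.4 TPM) or Cd38-/- library (118.4 to 178.3 TPM). The 5 endothelial markers reached 1733 TPM in a Cd38+/+ library and the 2 choroid plexus and ependymal markers 6700 TPM in a Cd38+/- library. Fewer genes were listed above 0 in the Cd38+/+ libraries (13160 to 13516) than in the Cd38+/- (16160 to 16327) and Cd38-/- libraries (15920 to 17906). All 10 assembly factors were above 0 in every library.

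Many nuclear genes of the respiratory chain are known targets of the ETS factor GABPA, of NRF1 and of YY1. RefSeq promoters on GRCm38.p6 (250 bases before to 50 after a transcript start) were present for 9 of the 10 genes, all but Cox17, and were searched on both strands for the GABPA core CCGGAAGT, the NRF1 core GCATGCGC, the YY1 core AAGATGGC and the CREB core TGACGTCA. The GABPA core was found in 4 of 9 genes, against 4.307% of the 27025 genes with a promoter in the table. The YY1 core was found in 1 of 9, Cox10, against 3.19% of all genes. The NRF1 and CREB cores were found in 0 of 9, against 3.049% and 2.031% of all genes, which says only that these letters are absent from these windows. The stretches around the GABPA core are shown so that the genes that hold it can be set beside their levels, with the core in capitals (its reverse complement in Cox16), each read 5′ to 3′ on the strand of the gene.
Cox10, chr11:64079481-64079510, minus strand: agcgctgggagCCGGAAGTgacaagaggaa
Cox15, chr19:43752975-43753004, minus strand: cgacgcctgacCCGGAAGTgcttgttcttt
Cox14, chr15:99725641-99725667, plus strand: agaggtagaagCCGGAAGTtcaaggct
Cox16, chr12:81485135-81485164, minus strand: cagaagcctcgACTTCCGGgggagggagga
The YY1 core of Cox10, which does not overlap its GABPA core, is shown in the same way.
Cox10, chr11:64079433-64079462, minus strand: ggcgggctagcAAGATGGCggcgcccagga
The core begins 27 bases before the transcript start in Cox10, 16 before it in Cox16, and at base 7 and base 34 after it in Cox15 and Cox14. Of the 4 genes that hold it, Cox10 passed the test described next in Cd38-/- against Cd38+/+ libraries, with a log2 fold change of -0.95, and the other three did not: Cox14 stood at -0.23, Cox16 at -0.20 and Cox15 at 0.05. A match of letters is a description and no evidence of binding.

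Cox10 (ENSMUSG00000042148, chr11:63962627-64079468, minus strand, GRCm38) was at 34.0, 39.2 and 47.0 TPM in the Cd38+/+ libraries. It was at 22.5, 19.9 and 23.1 TPM in the Cd38+/- libraries, and between 16.7 and 24.2 TPM (median 19.5) in the 6 Cd38-/- libraries. Every library of either mutant genotype lay below every Cd38+/+ library, and the mutant genotypes overlapped each other. The means were 40.1 ± 6.54 (SD, n = 3), 21.9 ± 1.69 (SD, n = 3) and 20.2 ± 2.75 TPM (SD, n = 6), a difference from Cd38+/+ libraries of -45.4% in Cd38+/- and -49.6% in Cd38-/- libraries. Here, as for each gene below, fewer cells that express a gene and less of its RNA per cell cannot be told apart in bulk RNA.

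Differences were tested with limma on log2(TPM + 1) over all genes with a mean above 5 TPM in a compared genotype, and genes with a change of at least 1.2-fold and a Storey q-value below 0.05 were called differentially expressed genes (DEGs). In Cd38-/- against Cd38+/+ libraries Cox10 fell by 0.95 on this log2 scale (SE 0.20, 95% interval -1.38 to -0.52, q = 0.0192). The exact permutation test of this single gene gave p = 0.0119, the smallest that 6 libraries against 3 allow. Across all 11722 genes tested the median log2 fold change was 0.15, and the change of Cox10 relative to it was -1.10, -1.10 with median-ratio scaling and -1.07 with quantile normalization. Its log2 fold change was the 154th most negative of these genes. In Cd38+/- against Cd38+/+ libraries the log2 fold change was -0.84 (SE 0.26, 95% interval -1.42 to -0.25), which did not pass the threshold (q = 0.184; exact permutation test p = 0.1, the smallest possible with 3 against 3). Between Cd38-/- and Cd38+/- libraries the log2 fold change was -0.12, with a 95% interval of -0.42 to 0.19 (q = 0.578). The level of Cd38 itself, for comparison, differed from Cd38+/+ libraries by -27.2% in Cd38+/- and -87.4% in Cd38-/- libraries. Both mutant genotypes were compared with the same 3 Cd38+/+ libraries, so these differences are not independent of each other.

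The call for Cox10 in Cd38-/- libraries was lost with limma's library quality weights (q = 0.289), and narrowly without Cd38-/- replicate 1, 2, 5 or 6 (q between 0.0512 and 0.0527); its log2 fold change stayed between -1.06 and -0.83 over all 9 fits that left out 1 library. The lower number of detected genes and the lower microglial and mural marker sums of Cd38+/+ libraries moved with this difference, and their part in it was not tested. The hemoglobin sum had a higher median in Cd38+/+ (9292 TPM) than in Cd38-/- libraries (3507 TPM), but the 2 genotypes overlapped. Among Cd38+/+ libraries it was lowest, at 4262 TPM, in replicate 3, where Cox10 was highest. Its part in the Cox10 difference was not tested. Of the cell type markers, DEGs in the same comparison were 2 of 10 tested for astrocytes, 1 of 3 for microglia, 1 of 2 for choroid plexus and ependyma and 0 of the rest, beside 8.28% of all genes, of which most were higher. The astrocyte genes Gfap (log2 fold change 0.997, q = 0.0175) and Aqp4 (0.71, q = 0.02004) and Ttr of the choroid plexus (6.02, q = 0.0291) were higher in Cd38-/- libraries. So was the microglial receptor P2ry12 (q = 0.0479), which had a median of 0 TPM in Cd38+/+ libraries and passed the filter only through the Cd38-/- libraries. Cox10 was lower while these 2 astrocyte genes were higher, but the 10 astrocyte markers did not share one direction. Their log2 fold changes were above 0 for 7 and below 0 for 3, with a median of 0.19 against 0.15 over all genes. The part of the cell type markers in the Cox10 difference was not tested either.

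**Figure D1:**
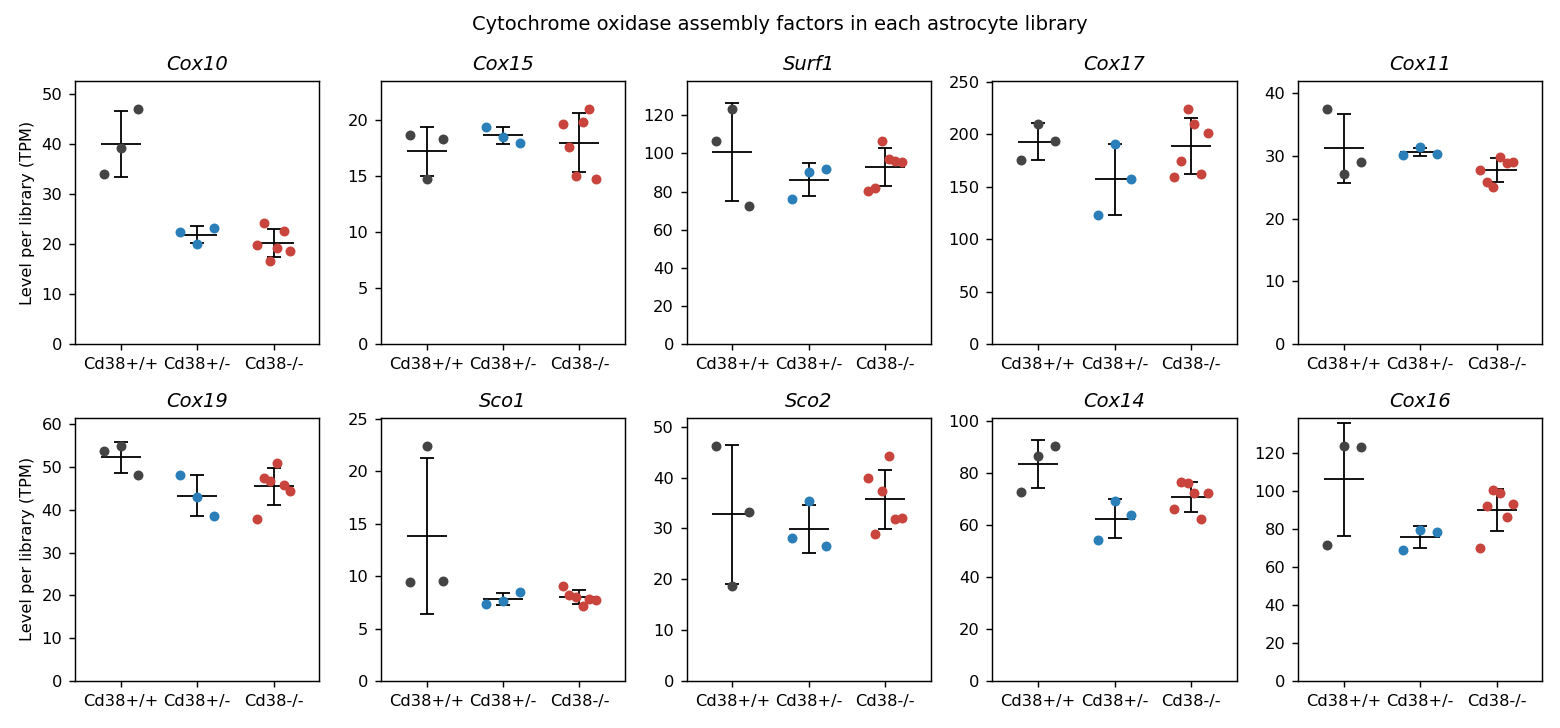
Level of each assembly factor in TPM (linear axes from 0) in the 3 Cd38+/+, 3 Cd38+/- and 6 Cd38-/- libraries; points are libraries, horizontal bars are means and vertical bars SD. Cox10 was above 33 TPM in all Cd38+/+ libraries and below 25 TPM in all others, Sco1 was high in 1 Cd38+/+ library, and the other genes overlapped between Cd38+/+ and Cd38-/- libraries.

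Of the 10 assembly factors, 1 was a DEG in Cd38-/- against Cd38+/+ libraries, Cox10, where 8.28% of all genes tested were DEGs (752 higher and 218 lower of 970) and 1.86% were DEGs that fell. The split of all DEGs moved with scaling, from 77.5% higher to 59.9% after median-ratio scaling, 50.5% after quantile normalization and 30.9% after correcting every library for a trend of level with length and GC content. The log2 fold change was below 0 for 8 of the 10 assembly factors, against 35.7% of all genes. The median over the 9 factors other than Cox10 was -0.15, against 0.15 over all genes. Of these 9, 0 were at an unadjusted limma p under 0.05, against 23.6% of all genes. These 9 genes are given below by what they do.

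Cox15, the partner of Cox10 in heme A synthesis (chr19:43733254-43753000), was at 18.7, 14.7 and 18.3 TPM in Cd38+/+ libraries, 19.5, 18.5 and 18.0 TPM in Cd38+/- libraries, and 14.8 to 21.0 TPM (median 18.7) in Cd38-/- libraries. All 3 genotypes overlapped. The log2 fold change was 0.05 (95% interval -0.42 to 0.53, q = 0.516) in Cd38-/- and 0.11 (-0.58 to 0.80, q = 0.555) in Cd38+/- against Cd38+/+ libraries, and its sign turned negative after quantile normalization, after median-ratio scaling and with the length and GC trend removed. Surf1 (chr2:26913381-26916530), which helps heme A into Cox1, was at 106, 123 and 72.5 TPM in Cd38+/+, at 76.3, 90.4 and 92.0 TPM in Cd38+/-, and at 80.4 to 107 TPM (median 95.6) in Cd38-/- libraries. The Cd38+/+ libraries of Surf1 spanned the whole range of the Cd38-/- libraries, and its log2 fold change there was -0.09 (95% interval -0.46 to 0.28, q = 0.445).

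Among the copper factors, Cox17 (chr16:38346991-38352763), the chaperone that hands copper on to the others, had the highest level of the 10 genes. It was at 175, 210 and 193 TPM in Cd38+/+, 123, 191 and 157 TPM in Cd38+/-, and 160 to 224 TPM (median 188) in Cd38-/- libraries. Its log2 fold change in Cd38-/- against Cd38+/+ libraries was -0.04 (95% interval -0.34 to 0.26), a narrow interval beside that of Sco2.

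Cox11 (chr11:90638173-90644931), which serves the copper site of Cox1, was at 37.4, 27.2 and 29.0 TPM in Cd38+/+, 30.2, 31.4 and 30.4 TPM in Cd38+/-, and 25.0 to 29.8 TPM (median 28.3) in Cd38-/- libraries. Its Cd38-/- libraries all lay below the Cd38+/- libraries (mean difference -9.55%), as did those of 2.88% of all genes, but overlapped the Cd38+/+ libraries. Cox19 (chr5:139336189-139351418), a small protein that supports Cox11 and lies on the chromosome of Cd38, was at 53.7, 55.0 and 48.2 TPM in Cd38+/+, 48.2, 43.1 and 38.6 TPM in Cd38+/-, and 37.8 to 50.9 TPM (median 46.3) in Cd38-/- libraries. The mean of its Cd38-/- libraries differed from that of Cd38+/+ libraries by -13.0%, with overlap (log2 fold change -0.20, q = 0.248; exact permutation test p = 0.0595).

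Sco1 (chr11:67052670-67067070), which delivers copper to Cox2, had the lowest level of the 10 genes. It was at 9.48, 22.4 and 9.57 TPM in Cd38+/+, 7.37, 7.61 and 8.45 TPM in Cd38+/-, and 7.20 to 9.11 TPM (median 7.94) in Cd38-/- libraries. Apart from Cox10 it was the 1 factor of the 9 others whose Cd38-/- libraries all lay below the Cd38+/+ libraries, a pattern held by 3.62% of all genes, with 9.11 against 9.48 TPM for the nearest pair. The log2 fold change was -0.61 (SE 0.31, 95% interval -1.29 to 0.07, q = 0.146; exact permutation test p = 0.0119), and 1 library set its size: without Cd38+/+ replicate 2 it was -0.23. Sco1 became a DEG with quantile normalization (log2 fold change -0.91, q = 0.0454) and without Cd38+/+ replicate 3 (-0.80, q = 0.0476). Over all genes, 1115 of 11722 were DEGs in the first of these fits and 3119 of 11779 in the second. Cd38+/+ replicate 2 also held the highest hemoglobin sum of all libraries, 18430 TPM, whose part in the Sco1 level was not tested. Sco2 (chr15:89371637-89373846), the paralog of Sco1, was at 46.2, 18.8 and 33.3 TPM in Cd38+/+, 28.1, 35.3 and 26.5 TPM in Cd38+/-, and 28.8 to 44.2 TPM (median 34.6) in Cd38-/- libraries. In the Cd38+/+ libraries Sco2 was lowest where Sco1 was highest, and its log2 fold change in Cd38-/- libraries was 0.19 (95% interval -0.37 to 0.75, q = 0.381).

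Of the early factors, Cox14 (chr15:99725618-99728136) was at 72.9, 86.6 and 90.5 TPM in Cd38+/+, 54.3, 69.2 and 63.7 TPM in Cd38+/-, and 62.2 to 76.6 TPM (median 72.2) in Cd38-/- libraries. Its Cd38+/- libraries all lay below the Cd38+/+ libraries, while 2 of 6 Cd38-/- libraries reached into the Cd38+/+ range. Cox16 (chr12:81359026-81485127) was at 71.5, 124 and 123 TPM in Cd38+/+, 69.2, 79.7 and 78.7 TPM in Cd38+/-, and 70.0 to 100.4 TPM (median 92.6) in Cd38-/- libraries. Its Cd38+/+ replicate 1 lay among the mutant libraries and the other 2 above them all. Without that library its log2 fold change in Cd38-/- libraries went from -0.20 (q = 0.310) to -0.46. It then became a DEG (q = 0.0468), in a fit where 1829 of 11778 genes were DEGs.

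In Cd38+/- against Cd38+/+ libraries, 0 of the 10 factors and 0 of 11763 genes (0.0%) were DEGs, with 1586 genes at an unadjusted limma p under 0.05 and 1464 DEGs when all 12 libraries shared one fit. In that shared fit Cox10 was the 1 DEG of the 10 factors (q = 0.0182). The Cd38+/- libraries lay wholly below the Cd38+/+ libraries for Cox10, Sco1 and Cox14, 3 of 10, against 6.94% of all genes. Their log2 fold changes were -0.84, -0.64 and -0.41, and 9 of the 10 factors had one below 0, against 35.6% of all genes. The exception was Cox15. The median over the 9 factors other than Cox10 was -0.27, against 0.18 over all genes. Between Cd38-/- and Cd38+/- libraries, 0 of the 10 factors were DEGs, where 4 of 11563 genes were (0.0346%), and log2 fold changes of the 10 lay between -0.14 (Cox11) and 0.27 (Cox17). At an unadjusted limma p under 0.05, that comparison held 0 of the 10 factors and 1299 of all genes. Sco2 became a DEG there with library quality weights (log2 fold change 0.35, q = 0.00569), a fit in which 3120 of 11563 genes were DEGs.

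**Figure D2:**
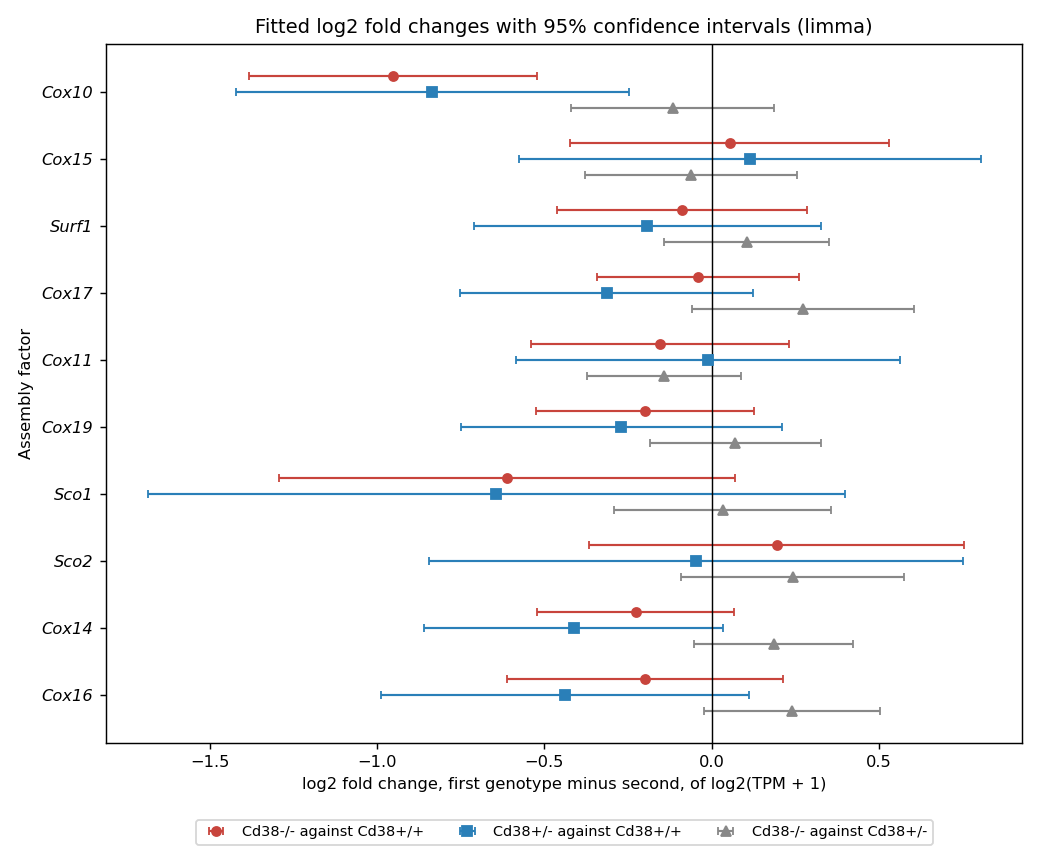
Fitted log2 fold change (horizontal axis, first genotype minus second) of each assembly factor with its 95% confidence interval in 3 comparisons. For Cd38-/- against Cd38+/+ libraries (circles) only the interval of Cox10, -1.38 to -0.52, left out 0; for Cd38+/- against Cd38+/+ libraries (squares) it did so too, but Cox10 did not pass the q-value threshold there; for Cd38-/- against Cd38+/- libraries (triangles) all 10 intervals held 0.

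To ask directly whether Cox10 changed unlike the others, its level was divided by that of each other factor within a library, which does not depend on the scaling of the library. Cox10 stood at 1.82, 2.66 and 2.57 times the level of Cox15 in the Cd38+/+ libraries, at 1.16, 1.08 and 1.29 times in the Cd38+/- libraries, and at 0.966 to 1.38 times in the Cd38-/- libraries. The mean ratio of Cox10 to Cox15 RNA was thus 2.35 for Cd38+/+, 1.17 for Cd38+/- and 1.13 for Cd38-/- libraries. On the log2(TPM + 1) scale the Cox10 to Cox15 ratio averaged 1.165 ± 0.29 over the Cd38+/+ libraries (SD, n = 3). Over the Cd38-/- libraries it averaged 0.16 ± 0.19 (SD, n = 6), a difference of -1.004 (exact permutation test, two-sided, p = 0.0119).

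Over the 9 ratios the difference between Cd38-/- and Cd38+/+ libraries ranged from -1.15 (Sco2) to -0.34 (Sco1). For 6 of the 9 factors (Cox15, Surf1, Cox17, Cox19, Cox14 and Cox16) every Cd38-/- library had a lower ratio than every Cd38+/+ library. Against all other genes tested, Cox10 gave such a ratio for 68.9%, so the share of assembly factors was near that of genes at large. The exact permutation test gave p = 0.0119 for Cox15, Surf1, Cox19 and Cox14, p = 0.0238 for Cox17, Cox16, Cox11 and Sco2, and p = 0.286 for Sco1. These are unadjusted, and Cox10 had been singled out with earlier results known. A fall of Cox10 beyond that of Sco1 was therefore not shown. That ratio rested on Cd38+/+ replicate 2, where Sco1 was high: without it the difference was -0.73 (p = 0.0357 by the exact permutation test) and without Cd38+/+ replicate 3 it was -0.03 (p = 0.893). The differences for Surf1 (without Cd38+/+ replicate 3), Cox11 (without Cd38+/+ replicate 2 or 3), Sco2 (without Cd38+/+ replicate 2 or 3, or Cd38-/- replicate 6) and Cox16 (without Cd38+/+ replicate 1) also went above 0.05 by the exact permutation test, with p from 0.0536 to 0.107.

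In Cd38+/- against Cd38+/+ libraries the differences of the 9 ratios ranged from -0.95 (Cox15) to -0.19 (Sco1), and 6 of 9 were lower without overlap (Cox15, Surf1, Cox17, Cox11, Cox19 and Cox14), against 70.6% of all genes set against Cox10 in the same way. No exact p below 0.1 is possible there. Between Cd38-/- and Cd38+/- libraries 0 of 9 ratios were lower without overlap, against 4.18% of all genes, and the differences lay between -0.39 (Cox17) and 0.03 (Cox11).

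**Figure D3:**
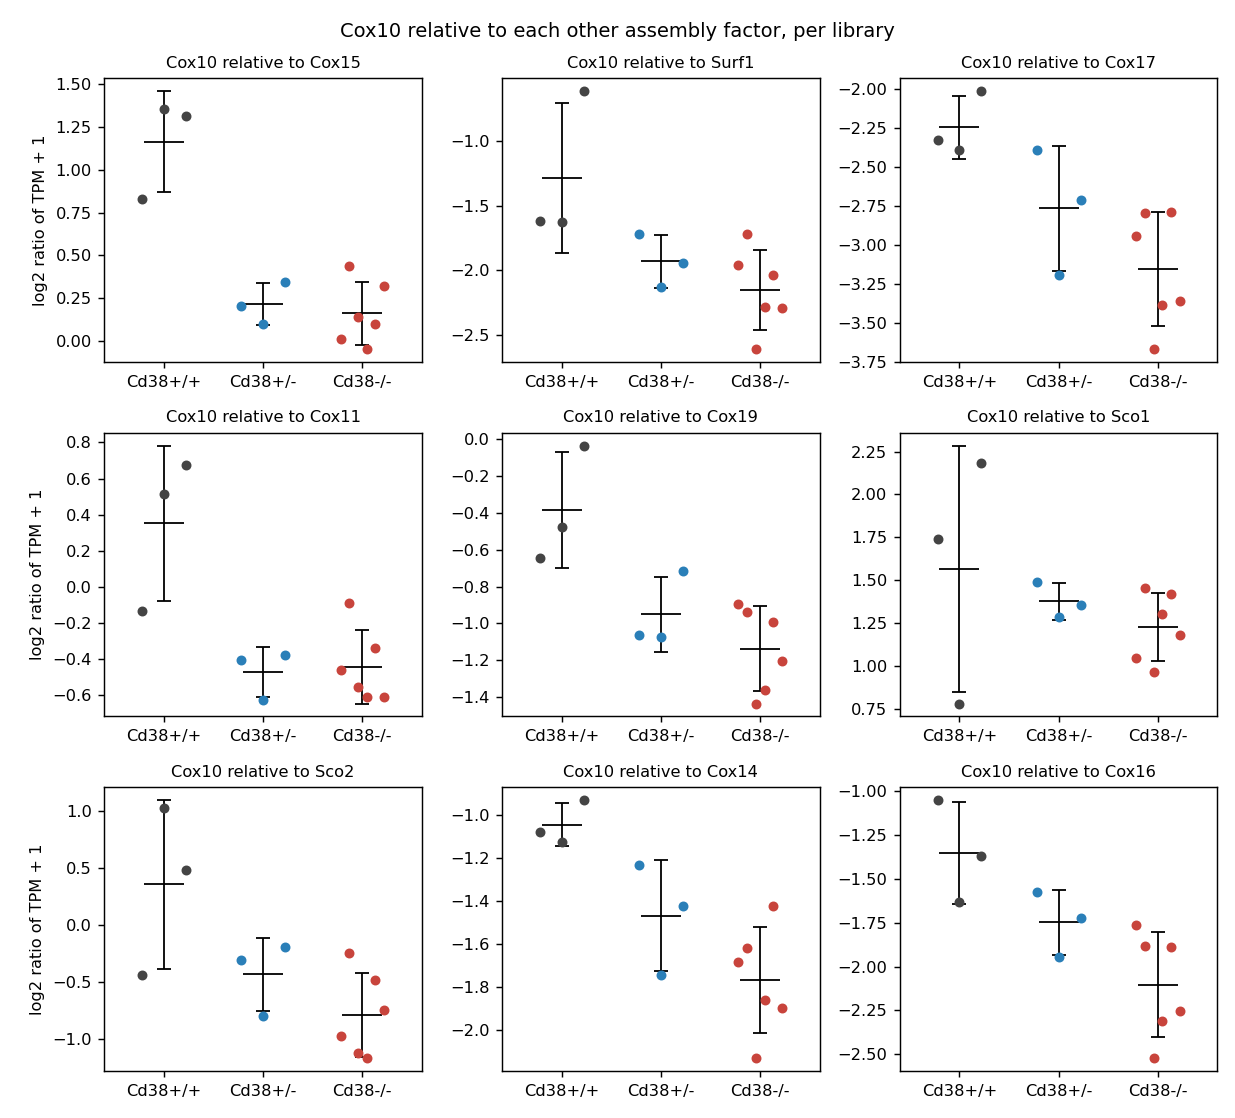
Log2 ratio of Cox10 to each other assembly factor (TPM + 1) in each library by genotype; points are libraries, horizontal bars are means and vertical bars SD, and the vertical axes differ and do not start at 0. The Cd38+/+ libraries lay above all Cd38-/- libraries for Cox15, Surf1, Cox17, Cox19, Cox14 and Cox16, and the genotypes overlapped for Cox11, Sco1 and Sco2.

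The order of levels among the factors differed between the genotypes. By mean TPM the order in Cd38+/+ libraries was Cox17 (193), Cox16 (106), Surf1 (100.7), Cox14 (83.3), Cox19 (52.3), Cox10 (40.1), Sco2 (32.8), Cox11 (31.2), Cox15 (17.3) and Sco1 (13.8). Neighbours overlapped between Cox16 and Surf1, Surf1 and Cox14, Cox10 and Sco2, Sco2 and Cox11, and Cox15 and Sco1. Cox10 was thus the sixth in Cd38+/+ libraries, and it was the eighth in both mutant genotypes, after Sco2 and Cox11. Other places changed as well, between genes whose ranges overlapped: Surf1 stood before Cox16 in both mutant genotypes, and Cox11 before Sco2 in Cd38+/- libraries. In Cd38-/- libraries its range overlapped that of Cox15, which it exceeded in 5 of 6 libraries.

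The spread between libraries differed with genotype. Over all genes tested the median SD of log2(TPM + 1) over Cd38+/+ libraries was 0.49, against 0.20 for Cd38+/- and 0.23 for Cd38-/- libraries. For Cox10 it was 0.23, 0.11 and 0.19. In Cd38+/+ libraries Sco1 (0.67) and Sco2 (0.64) were the most variable of the 10 factors and Cox19 (0.10) the least.

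Several of the genes share sequence with a neighbour. The cDNA kit does not mark strand, so reads where genes overlap on opposite strands cannot be assigned by strand, and genes that overlap on the same strand may have divided reads. Cox10 contains the antisense genes 9630013K17Rik and Gm12289, which were not analysed here. Surf1 overlaps Surf2 by 164 bases and Cox11 overlaps Tom1l1 by 1467 bases, both on the opposite strand. Sco2 overlaps Tymp by 1916 bases on its own strand and Ncaph2 by 1190 bases on the other, and Cox15 overlaps Entpd7 and Cutc by 444 and 5 bases. Cox16 and Cox17 lie inside longer or largely shared transcription units, Gm20498 and Gm21987, which were not analysed here; Adam4, within Cox16, was at or below 0.33 TPM. Of these partners Surf2, Tom1l1, Ncaph2, Tymp and Cutc passed the filter on low values and 0 of these 5 were DEGs in any comparison. Of 7 genes in the table within 1 Mb of Cox10, 6 passed the filter and 0 were DEGs in any comparison; in Cd38-/- against Cd38+/+ libraries they lay between log2 fold changes of -0.05 (Hs3st3b1) and 1.02 (Tekt3), genes named here after their values were seen. Both counts of 0 say little beside the shares of all genes that were DEGs. These were 8.28% in Cd38-/- and 0.0% in Cd38+/- against Cd38+/+ libraries, and 0.0346% between Cd38-/- and Cd38+/- libraries.

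The wider assembly machinery of complex IV, 22 further genes in the table (Coa1 was not analysed here), did not share one direction. Of the 21 that were tested in Cd38-/- against Cd38+/+ libraries, 1 rose and 1 fell, beside 8.28% of all genes, 10 log2 fold changes were above 0 and 11 below, and their median was -0.01. Lrpprc, which keeps mitochondrial mRNAs stable, rose from 12.9 ± 5.49 TPM in Cd38+/+ (SD, n = 3) to 30.5 ± 5.199 TPM in Cd38-/- libraries (SD, n = 6; log2 fold change 1.25, q = 0.0207). Coa8, listed under its older symbol Apopt1 and known to protect complex IV under oxidative stress, fell from 69.0 ± 11.7 TPM (SD, n = 3) to 47.8 ± 4.503 TPM (SD, n = 6; log2 fold change -0.51, q = 0.0473). In Cd38+/- libraries Lrpprc and Coa8 were at 29.0 ± 6.86 and 46.7 ± 3.63 TPM (SD, n = 3 each) and were not DEGs. The call of Lrpprc was lost without Cd38-/- replicate 1, 2, 5 or 6, and that of Coa8 without Cd38+/+ replicate 1 or any of the Cd38-/- libraries. Both were lost with library quality weights (q = 0.264 and 0.416) and with a block for the replicate number (q = 0.325 and 0.388). The Coa8 call was also lost with Benjamini-Hochberg adjustment (q = 0.0836), without the eBayes trend (q = 0.0576) and with at least 1 TPM required in all libraries (q = 0.0537).

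Of the others in that list with large differences, the Cox2 insertase Cox18 had a log2 fold change of 0.95 (q = 0.111) and Tmem177, which works with the Cox2 chaperone Cox20, one of 0.82 (q = 0.0710). The Cd38+/+ libraries of Cox18 ranged from 5.96 to 35.9 TPM (median 7.69), the highest of them above every mutant library. Without Cd38+/+ replicate 1 its log2 fold change was 1.70. Cox20 itself was at -0.53 (q = 0.0629) and the heme-binding factor Coa7 at -0.49 (q = 0.0715). Cox20, Coa7 and Coa8 were each lower in every Cd38-/- library than in every Cd38+/+ library, as were 3.62% of all genes. Lrpprc, Tmem177 and Coa5, the last named after its values were seen, were each higher in every Cd38-/- library. Of all genes, 11.8% lay without overlap in either direction.

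Among the structural subunits of complex IV, 19 were in the table (the mitochondrially encoded mt-Co1, mt-Co2 and mt-Co3 were not analysed here) and 17 were tested. Of these 0 were DEGs in any comparison, where 8.28% of all genes were in Cd38-/- against Cd38+/+ libraries, and their median log2 fold change in Cd38-/- against Cd38+/+ libraries was -0.04, with 2 genes, Cox4i2 and Cox7a2l, at an unadjusted limma p under 0.05, against 23.6% of all genes. The 4 subunits with the largest log2 fold changes were the tissue-restricted isoforms Cox8b (1.75, q = 0.132), Cox4i2 (1.02, q = 0.0527) and Cox7a1 (0.70, q = 0.207), and Ndufa4l2 (0.54, q = 0.177). Cox8b had a Cd38+/+ mean of 2.30 TPM, with a median of 0, and passed the filter only through the Cd38-/- libraries. Cox7a2l, named after its values were seen and known for its part in supercomplexes, was lower in every library of both mutant genotypes than in every Cd38+/+ library, with means of 130.6, 81.7 and 97.9 TPM in Cd38+/+, Cd38+/- and Cd38-/- libraries and log2 fold changes of -0.68 (q = 0.176) and -0.42 (q = 0.0598) in Cd38+/- and Cd38-/- against Cd38+/+ libraries. Of all genes, 6.94% lay wholly below the Cd38+/+ libraries in Cd38+/- libraries and 3.62% in Cd38-/- libraries.

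The genes that make the substrates of Cox10 were not called either. Of 13 genes of heme synthesis and ferredoxins, 0 were DEGs in any comparison, a count that says little beside 8.28% of all genes in Cd38-/- against Cd38+/+ libraries, and the median log2 fold change in Cd38-/- against Cd38+/+ libraries was -0.02. Fdps, which makes the farnesyl pyrophosphate that Cox10 joins to heme, stood at 238 ± 78.9 TPM in Cd38+/+ libraries (SD, n = 3) against 160 ± 35.7 TPM in Cd38-/- libraries (SD, n = 6; log2 fold change -0.53, q = 0.107). The ferredoxin Fdx2, of the family that supplies electrons to Cox15, was at 58.2 ± 16.2 and 37.4 ± 4.75 TPM (-0.60, q = 0.0543). It was lower in every Cd38-/- library than in every Cd38+/+ library, as were 3.62% of all genes. Uros, which closes the porphyrin ring, had a log2 fold change of 0.98 (q = 0.106), with Cd38+/+ libraries from 4.34 to 26.8 TPM (median 24.1). Alas2, the erythroid form of the first enzyme of the pathway, had one of -0.72 (q = 0.177), and it stood at 49.97, 21.2 and 33.6 TPM on average in Cd38+/+, Cd38+/- and Cd38-/- libraries, in the order of their hemoglobin sums.

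Of 11 genes of copper handling outside the mitochondrial factors, 0 were DEGs in any comparison, again a count that says little beside 8.28% of all genes, with a median log2 fold change of 0.12 in Cd38-/- against Cd38+/+ libraries. The cytosolic chaperone Atox1 was at 261 ± 31.9 TPM (SD, n = 3) and 184 ± 36.2 TPM (SD, n = 6; -0.52, q = 0.0578), the transporter Slc31a2 had a log2 fold change of -0.53 (q = 0.0591), and the copper pumps Atp7b and Atp7a had 1.47 (q = 0.0794) and 0.28 (q = 0.352), the last turning negative with the length and GC trend removed. Atp7b passed the filter on low values only through the Cd38-/- libraries in this comparison, so a rise was the only change it could show. Of 28 tested assembly factors of complexes I, II, III and V, 2 rose and 0 fell, a share near the 8.28% of all genes. Lyrm7, which matures the Rieske protein of complex III, went from 0.70 ± 0.905 TPM (SD, n = 3) to 8.69 ± 3.22 TPM (SD, n = 6; log2 fold change 2.58, q = 0.0104); it passed the filter on low values only through the Cd38-/- libraries, so a rise was the only change it could show. Sdhaf2, which adds flavin to complex II, went from 26.7 ± 9.25 to 52.5 ± 3.00 TPM (1.01, q = 0.0195), a call lost without Cd38-/- replicate 1, 2, 5 or 6. That call was also lost with library quality weights (q = 0.230) and with a block for the replicate number (q = 0.325). Nubpl (1.32, q = 0.154), Ndufaf5 (0.86, q = 0.134), Uqcc3 (0.68, q = 0.131) and Ndufaf7 (0.45, q = 0.0886) were not called. Uqcc3 serves complex III and the others complex I. The Cd38+/+ libraries of Nubpl ranged from 0.28 to 22.9 TPM (median 15.0).

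Many calls in these lists moved with single libraries. That of Lyrm7, for which only a rise was possible, held in all 9 fits that left out a library. It was lost with library quality weights (q = 0.187) and with a block for the replicate number, without (q = 0.318) or with the length and GC trend removed (q = 0.326). Of the 20 genes named above for their size of difference without being DEGs, 17 became DEGs in at least 1 of the 9 fits that left out a library, 7 without Cd38+/+ replicate 1, 5 without Cd38+/+ replicate 2, 8 without Cd38+/+ replicate 3 and 1 without Cd38-/- replicate 3. These 20 genes were picked by their size of difference in the same comparison, which favoured such calls. The number of DEGs over all genes went from 970 to between 74 (without Cd38-/- replicate 2) and 3119 (without Cd38+/+ replicate 3) in the same 9 fits. It was 1829 without Cd38+/+ replicate 1, 1931 without Cd38+/+ replicate 2 and 573 without Cd38-/- replicate 3. The share of all genes that gained a call was not counted.

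**Figure D4:**
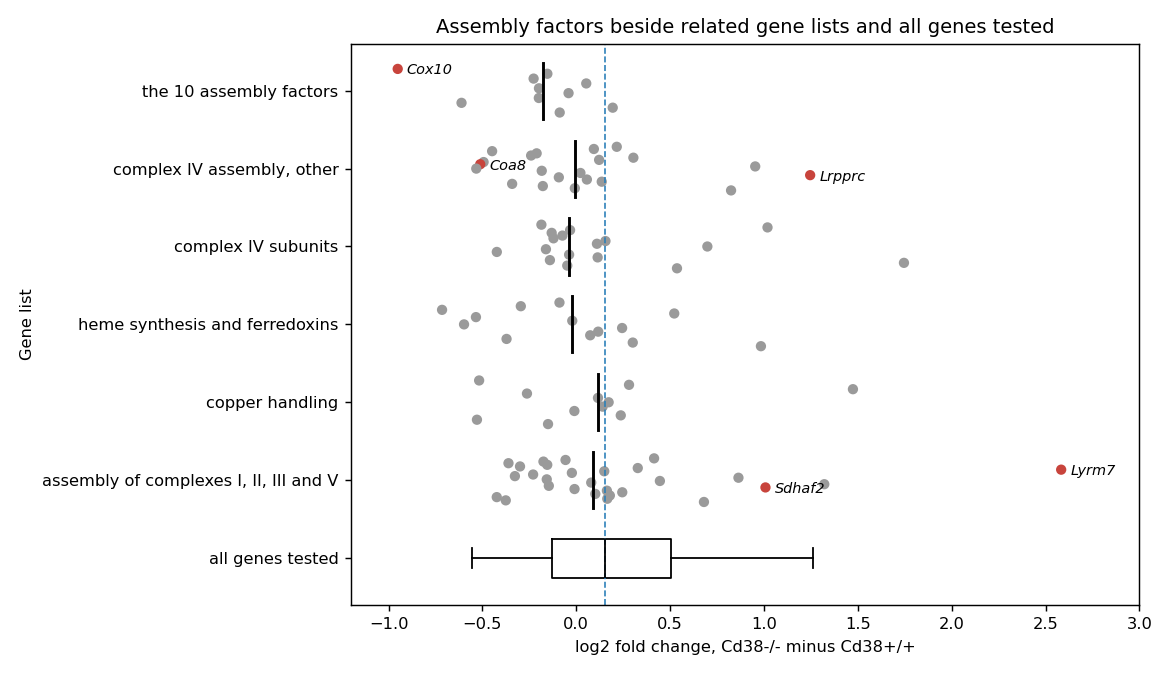
Log2 fold change of Cd38-/- against Cd38+/+ libraries (horizontal axis) for each tested gene of the 10 assembly factors and of 5 related lists; red points are DEGs, grey points are not, black bars are list medians, and the box for all genes tested shows the quartiles with whiskers from the 5th to the 95th percentile. The dashed line is the median of all genes, 0.15; Cox10 lay at -0.95, and list medians lay between -0.18 and 0.12.

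The genes with the pattern most like that of Cox10 were not assembly factors. Profiles of log2(TPM + 1) over the 12 libraries were centred on the Cd38+/+ mean and compared by their root mean square difference over the 11721 other genes tested. The 5 nearest were Klf6 (0.20), Jakmip1 (0.21), Parp11 (0.21), H1f2 (0.21) and H2ax (0.21). The transcription factor Klf6 was at 118 ± 5.28 TPM (SD, n = 3) in Cd38+/+, 62.6 ± 12.9 TPM (SD, n = 3) in Cd38+/- and 62.5 ± 6.63 TPM (SD, n = 6) in Cd38-/- libraries. The histone genes H1f2 and H2ax went from 156 ± 19.1 and 102 ± 8.73 TPM in Cd38+/+ (SD, n = 3) to 76.6 ± 9.85 and 51.2 ± 8.03 TPM in Cd38-/- libraries (SD, n = 6). These genes share their libraries with Cox10 and were ranked by the same values, so the likeness is a description. Of the other assembly factors, Sco1 came nearest (0.41, rank 284), followed by Cox14 (0.59, rank 1138), and Sco2 was the farthest (0.99, rank 5734).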

How the data were processed

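Astrocyte RNA of 12 libraries had been depleted of ribosomal RNA (the labels name polyA RNA), made into cDNA with a low-input kit that does not mark strand, and sequenced as paired ends; libraries of marginal quality were kept. The authors trimmed reads with Trim Galore 0.6.4, mapped them to mm10 with STAR 2.7.1a and estimated levels per gene with RSEM 1.2.28; the annotation is not given in the sources used here. The deposited unit is TPM, 1 column per library, which keeps no depth, so no interval for counting error could be given.

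Genotypes were read from the labels. Genes with a mean TPM over 5 in a compared genotype were fitted as log2(TPM + 1) with limma 3.58.1 (eBayes with a trend) under R 4.3.3, 2 genotypes at a time. Storey q-values under 0.05 with a 1.2-fold change or more made a DEG. The procedure was run on simulated data in which a gene had the same spread in both genotypes. That run does not cover the unequal spread between genotypes seen here. For single values the exact permutation test of the absolute difference of means was used, two-sided (scipy 1.17.1); the smallest p is 0.0119 for 6 libraries against 3 and 0.1 for 3 against 3. Positions and overlaps came from GENCODE vM21 on GRCm38, promoters from RefSeq on GRCm38.p6. Named were the 10 factors, Cd38, genes overlapping a factor, the 5 genes most like Cox10 and, in each other list, the DEGs (up to 6) and then up to 4 genes with the largest log2 fold change in Cd38-/- against Cd38+/+ libraries. Members and lists were chosen with earlier results of these data known.

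Alternatives changed the pseudocount (0.1 or 5), the filter (none, or at least 1 TPM in all libraries) and the call (Benjamini-Hochberg adjustment, or a log2 fold change of at least 1.2). Others were eBayes without trend, library quality weights (statmod 1.5.0), median-ratio scaling, quantile normalization, 1 fit of all 12 libraries, a block for the replicate number, correction of every library for length and GC content (natural splines, 4 degrees of freedom), the block and this correction at once, and leaving out each library.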

Additional observations from a re-analysis of the deposited data

How the results depend on the processing

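Depth is unknown for TPM, and the size of difference that 3 libraries against 6 can show for each of the 9 other factors was not tested. DEGs in Cd38-/- against Cd38+/+ libraries (970) numbered 2283 with no filter, 326 with Benjamini-Hochberg adjustment, 337 with a log2 fold change of at least 1.2, 1 with library quality weights, 1822 with all 12 libraries in 1 fit, and 74 to 3119 with 1 library left out. In Cd38+/- against Cd38+/+ libraries (0) they numbered 663 with no filter, 9 without the eBayes trend, 30 with quality weights, 1464 with all 12 libraries and 0 to 10 with 1 library left out. Between Cd38-/- and Cd38+/- libraries (4) they numbered 2 with the fold threshold, 3120 with quality weights, 1 with median-ratio scaling, 1 with all 12 libraries, 2 with the length and GC trend removed and 0 to 93 with 1 library left out. The cause was not tested for any of these.

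The fall of Cox10 in Cd38-/- libraries kept its sign under every alternative run; it was not called where a log2 fold change of at least 1.2 was required (-0.95) and with quality weights (-0.93), and it spanned -1.06 to -0.83 with 1 library left out. In Cd38+/- libraries Cox10 was called only with all 12 libraries in 1 fit (-0.84). Cd38 was not called with quality weights (-3.14) against Cd38+/+ libraries; against Cd38+/- libraries it spanned -2.63 to -2.37 with 1 library left out and was not called without Cd38+/- replicate 3. The count of Cox10 ratios that were lower without overlap spanned 6 to 8 of 9 (Cd38-/- against Cd38+/+), 6 to 8 (Cd38+/- against Cd38+/+) and 0 to 2 (Cd38-/- against Cd38+/-, 2 without Cd38+/- replicate 2).

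The labels do not say whether equal replicate numbers mark paired libraries. Correlations of same-numbered deviations were -0.0943, -0.0346 and -0.0644 (Cd38-/- and Cd38+/+) and -0.00655, 0.04 and 0.0484 (Cd38+/- and Cd38+/+). They were 0.501, -0.296 and -0.00655 for Cd38-/- and Cd38+/- libraries, where differently numbered ones ranged from -0.541 to 0.512. Such correlations cannot exclude a shared litter, day or batch. With the replicate block, DEGs numbered 2, 4 and 2 in the 3 comparisons, and with the block and the length and GC trend removed 2, 1 and 306; Cd38-/- replicates 4 to 6, whose number no other genotype shares, then add nothing to the difference. Cox10 in Cd38-/- against Cd38+/+ libraries was at -0.95 (q = 0.336) with the block and -1.17 (q = 0.325) with both.

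Sign changes were confined to differences that were not called, in the fits run here. In Cd38-/- against Cd38+/+ libraries, Cox15 was at -0.0079 with quality weights, -0.058 after median-ratio scaling, -0.13 after quantile normalization, -0.30 with the length and GC trend removed and -0.39 with the block and that trend removed, and Atp7a at -0.077 with the trend removed. With 1 library left out, Cox15 spanned -0.051 to 0.11, Surf1 -0.31 to 0.072, Cox17 -0.11 to 0.022, Sco2 -0.15 to 0.48 and Atp7a -0.0024 to 0.61. In Cd38+/- against Cd38+/+ libraries, Cox15 was at -0.011 after median-ratio scaling, -0.11 after quantile normalization and -0.28 with the trend removed (with and without the block), where Cox11 was at 0.075 and Sco2 at 0.089; with 1 library left out Cox11 spanned -0.10 to 0.12, Sco2 -0.39 to 0.24 and the Cox10 to Sco1 ratio -0.59 to 0.12. Between Cd38-/- and Cd38+/- libraries, Sco1 was at -0.084 with quality weights; with the trend removed Surf1 was at -0.031, Sco1 at -0.031 and Cox14 at -0.014; with the block and the trend removed Surf1 was at -0.087 and Cox19 at -0.045; with 1 library left out Cox19 spanned -0.0075 to 0.15 and Sco1 -0.0038 to 0.084.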
